A study of Mus musculus with 4 samples.

Results

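DNA methylation of colonic intestinal stem cells (ISCs) at postnatal day 21 (P21) was compared with that of ISCs at birth (P0), using 2 of the 4 whole-genome bisulfite libraries of the series. ISCs were cells of the mouse colon that carried EGFP under the control of the endogenous Lgr5 locus, and the other 2 libraries held EpCAM-positive, EGFP-negative cells of the same ages, here called differentiated cells. All 4 groups came from C57 mice that descended from crosses of the Lgr5-EGFP-CreER line with wild-type mice. Each group had 1 library, made from pooled litters at P0 and from pooled EGFP-positive offspring at P21. No value below therefore has a replicate check, and each test compares 2 libraries rather than the 2 ages. The allele is expressed as a mosaic, and crypts without EGFP also have crypt-base cells, so that the EGFP-negative libraries can hold stem cells beside any other epithelial cell. Litters were pooled at P0 but reporter-positive offspring at P21, so that this share may differ between the ages, and its part in each comparison with differentiated cells was not tested.

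The comparison covered 200-bp bins and up to 3 parts of each of 21275 autosomal protein-coding genes. These were the promoter (1 kb on either side of the transcription start), the last exon and the body (the rest of the transcript). A last exon was taken only in the 18485 genes with more than 1 exon. In the other genes the body is the whole transcript outside the promoter, including its end. A region was tested with 10 or more calls in both ISC libraries, a call being 1 reading of 1 CpG in 1 sequenced fragment. It was called when its level differed by more than 15 percentage points with an adjusted p below 0.05 (two-sided Fisher exact test, Benjamini-Hochberg adjustment over all regions of the kind).

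Methyl groups on the cytosine of CpG pairs are copied to the new strand at cell division, so that a level set in a stem cell can pass to its descendants. Dense clusters of CpGs, called CpG islands (CGIs), are mostly unmethylated, while the sparse CpGs of the rest of the genome are mostly methylated. Low methylation at promoters and enhancers outside islands accompanies the use of these elements in a cell type. Lgr5-positive cells at the crypt base renew the colonic epithelium, and between birth and weaning the epithelium meets milk, microbes and then solid food. A methylation level is a share of calls, so that a change in every cell and a change in the share of cells that carry it cannot be told apart.

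The libraries held between 1011013849 and 1172882021 calls on autosomes, of which 51.2% to 64.4% lay at positions that were read extremely deeply and were left out. The median covered CpG had 16 calls in ISCs at P0 and 17 at P21, and 25 and 21 in differentiated cells. Promoters of 20 colonic epithelial marker genes had a median level of 6.16% in ISCs at P0 and 3.23% at P21. Promoters of 19 blood cell markers had a median of 79.9% and 77.5%, with 1 of 19 below 20% in each library. Markers of fibroblasts and smooth muscle (11 of 19 promoters below 20% in both ISC libraries), endothelium (4 of 13) and enteric neurons and glia (10 of 14) separated less, or for endothelium held few genes. Of the markers of other cell types, 2 of 19 fibroblast and smooth muscle promoters were called in ISCs, beside 0.613% of all promoters gaining, and no promoter of the other 3 lists. These gains were at Pdgfrb (45.5% to 65.7%, beside 49.6% and 52.0% in differentiated cells and not shared by them) and Tagln (37.7% to 53.5%, a call lost when calls were divided by CpGs). At last exons, 1 of 18 blood cell markers gained (Fcer1g) and 1 lost (Vav1), and 1 of 12 endothelial markers lost (Vwf). Colonic epithelial markers had 2 gains and 2 losses of 17 last exons. Over all last exons 1.58% gained and 1.74% lost. Among bodies, colonic epithelial markers had 2 losses (Krt19 and Epcam) and no gain of 20, beside 0.412% of all bodies gaining and 0.7% losing. Their median body change was -4.09 points in ISCs and -5.39 points in differentiated cells, beside -0.19 and -0.47 points over all bodies. No body was called in the other marker lists of this check. Promoter methylation of the 26 stem cell markers measured was low in all 4 libraries too (medians between 1.99% and 3.36%). The median of this list thus did not set the ISCs apart from the differentiated cells. At Lgr5, the gene used for the sort, the promoter was at 2.97% at P0 and 1.49% at P21 in ISCs. In differentiated cells the Lgr5 promoter was at 1.75% and 5.77%, and its ISC change was not called.

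Of 4404866 bins tested, 43577 gained (0.989%) and 60695 lost (1.38%) methylation from P0 to P21 in ISCs. When the calls of a bin were divided by its number of CpGs, so that 1 fragment over several CpGs counts about once, 255 bins gained and 2939 lost. The mean level over bins differed by only -0.305 points between the ages. Losing bins had a median level of 70.7% at P0 and 30.3% at P21, and gaining bins 48.2% and 79.7%, while the median over all bins tested in 4 libraries was 85.7% and 85.9%. The calling rule partly sets these starting levels. A bin at the median of all bins has too little room to gain more than 15 points, and a bin of low level cannot lose that much. Calls were nearer to transcription starts than bins in general: 14.98% of gaining and 15.4% of losing bins lay within 5 kb of a start, against 11.1% of all bins tested. The bodies of protein-coding genes held 47.9% of gaining and 45.6% of losing bins, against 40.9% of all bins. Called bins were also deeper, with a median of 84 (gaining) and 76 (losing) calls in ISCs at P0, against 51 in all bins tested. The part of depth in these shares was not tested.

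The direction of the calls moved with CpG number. Among bins with 2 CpGs, 0.496% gained and 0.970% lost, whereas among bins with 17 or more CpGs 0.855% gained and 0.173% lost. The share of calls that were gains was 33.8% in bins of 2 CpGs and 83.1% in bins of 17 or more. The calling rule bears on these shares, since a bin of high level has little room to gain and a bin of low level little to lose. Sparse CpGs are mostly methylated and dense clusters mostly unmethylated, so that the rule limits gains in sparse bins and losses in dense bins. Levels at P0 were not matched between the classes, and the part of this limit was not tested. The median calls per bin rose along the same classes from 33 to 229 in ISCs at P0. Depth thus moved with CpG number, and its part in these shares was not tested.

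**Figure D1:**
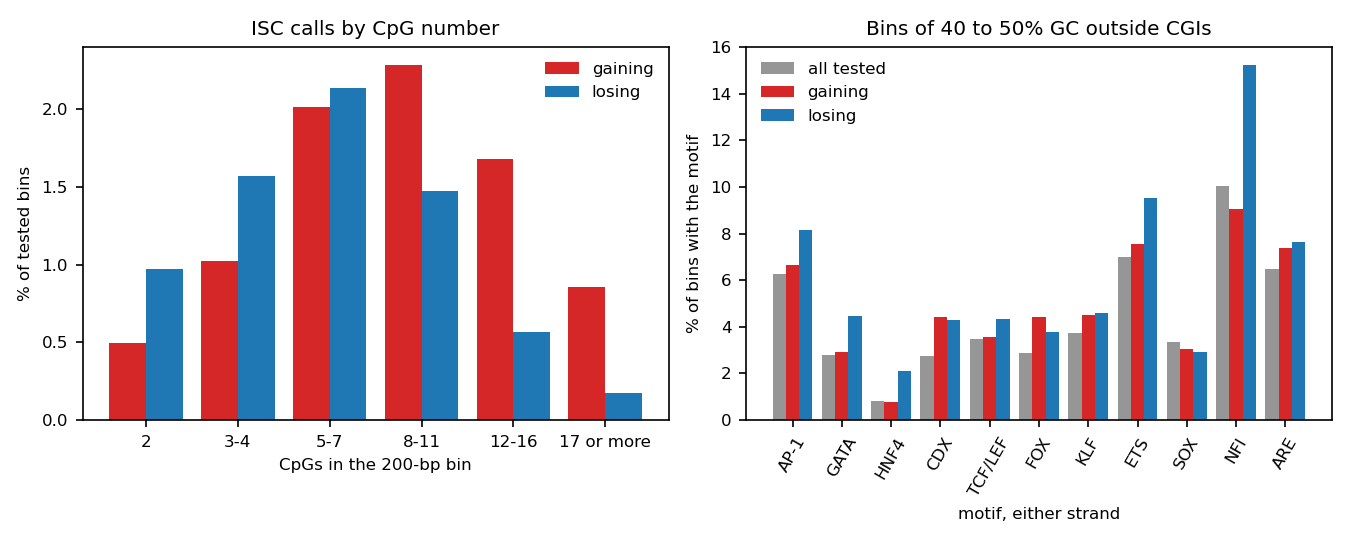
Left, share of tested 200-bp bins (y axis, %) called gaining or losing in ISCs, by number of CpGs in the bin (x axis). Right, share of bins with a motif on either strand (y axis, %) among all tested, gaining and losing bins of 40 to 50% GC outside CGIs; the HNF4 letters were in 2.10% of losing and 0.816% of all such bins.

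At promoters, 129 of 21057 tested gained (0.613%) and 232 lost (1.1%), and on calls divided by CpGs 61 gained and 123 lost. The 8 largest losses were at Casp1, Pigr, Xdh, Hsd17b13, Tnfsf13, Aqp4, Hsd3b3 and Apol10a. The promoter of Casp1, the caspase that processes interleukin-1 beta (chr9:5297517-5299516 on mm9, plus strand), fell from 66.8% (95% Wilson interval 63.4 to 70.0%, 792 calls) at P0 to 3.93% (2.81 to 5.47%, 840 calls) at P21 (two-sided Fisher exact test, adjusted p = 1.2e-174). In differentiated cells the same promoter was at 62.2% and 3.35%. Intervals cover counting error only, and PCR copies of a fragment could not be told from separate molecules.

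The promoter of Pigr, the receptor that carries immunoglobulin A across the epithelium (chr1:132722261-132724260), fell from 81.5% to 23.6% in ISCs and was at 79.6% and 7.92% in differentiated cells. Tnfsf13, which encodes the plasma cell survival factor APRIL, fell from 66.4% to 16.7%. Xdh, the xanthine dehydrogenase of purine breakdown, fell from 67.03% to 15.3%. Both were also lower at P21 in differentiated cells, at 11.6% against 72.9% for Tnfsf13 and at 9.43% against 56.2% for Xdh.

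The water channel gene Aqp4 fell from 58.7% to 9.25% in ISCs and was at 57.2% and 7.74% in differentiated cells. Hsd3b3, a steroid dehydrogenase gene, fell from 77.3% to 27.8%, and Apol10a, of the apolipoprotein L family, from 86.6% to 38.6%. Hsd17b13, which encodes an enzyme of lipid droplets, fell from 82.4% to 31.9% in ISCs but was at 71.4% and 51.6% in differentiated cells, and the 2 changes differed (adjusted p below the threshold of the z test described further on). As a mean over its bins the Hsd17b13 change was -27.3 points instead of -50.5. On each strand read alone the 8 losses kept their direction, from -22 points (Hsd3b3, bottom strand) to -73 points (Casp1, top strand).

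The sequence of the Casp1 bin with the largest loss shows how few CpGs such a change can rest on. This 200-bp bin (chr9:5298801-5299000 on mm9, plus strand of the genome, in intron 1 of Casp1) has 2 CpGs, in capitals, and was at 86.4% (88 calls) in ISCs at P0 and 1.2% (84 calls) at P21.
Casp1 promoter bin: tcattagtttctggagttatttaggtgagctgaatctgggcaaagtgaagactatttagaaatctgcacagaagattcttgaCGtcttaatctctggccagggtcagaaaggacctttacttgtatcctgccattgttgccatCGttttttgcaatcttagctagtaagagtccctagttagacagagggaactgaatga

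Gains at promoters were led by Adam24, Hoxa3 and Mab21l1. Adam24 encodes a membrane protein of the ADAM family known from testis, and its promoter (chr8:41759448-41761447) had 5 CpGs. It was at 36.6% (27.9 to 46.4%, 101 calls) at P0 and 88.9% (78.8 to 94.5%, 63 calls) at P21 in ISCs, and at 75.8% and 64.8% in differentiated cells. Its calls came almost wholly from the top strand (99 and 59 in ISCs), and with 2 and 4 calls the bottom strand could not show the change. Its bin of largest gain (chr8:41759401-41759600, plus strand of the genome, outside annotated genes) is shown with its 3 CpGs in capitals. The bin begins before the promoter window, and only the last of these CpGs lies inside that window. The others lie just upstream and are not among the 5 CpGs of the promoter.
Adam24 promoter bin: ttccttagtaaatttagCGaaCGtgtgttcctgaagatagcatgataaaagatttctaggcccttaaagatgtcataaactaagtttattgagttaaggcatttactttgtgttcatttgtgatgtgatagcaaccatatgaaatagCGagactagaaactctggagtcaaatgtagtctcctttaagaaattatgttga

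The promoter of Hoxa3, a homeobox gene of axial patterning (chr6:52162067-52164066), rose from 3.29% (1428 calls) to 39.8% (1825 calls) in ISCs and was at 2.94% and 23.2% in differentiated cells. Mab21l1 and Mab21l2, related genes of embryonic patterning, rose from 23.9% to 60.1% and from 50.5% to 79.9%. The remaining large gains were at Dnajb3, a co-chaperone gene (35.4% to 65.0%), Cd200, a surface protein that restrains myeloid cells (40.4% to 68.3%), Xcr1, a chemokine receptor gene (46.2% to 73.6%), and Homer1, a synaptic scaffold gene (46.5% to 73.8%). At Homer1 the call was lost when calls were divided by the CpGs per bin (two-sided Fisher exact test, adjusted p = 0.15).

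**Figure D2:**
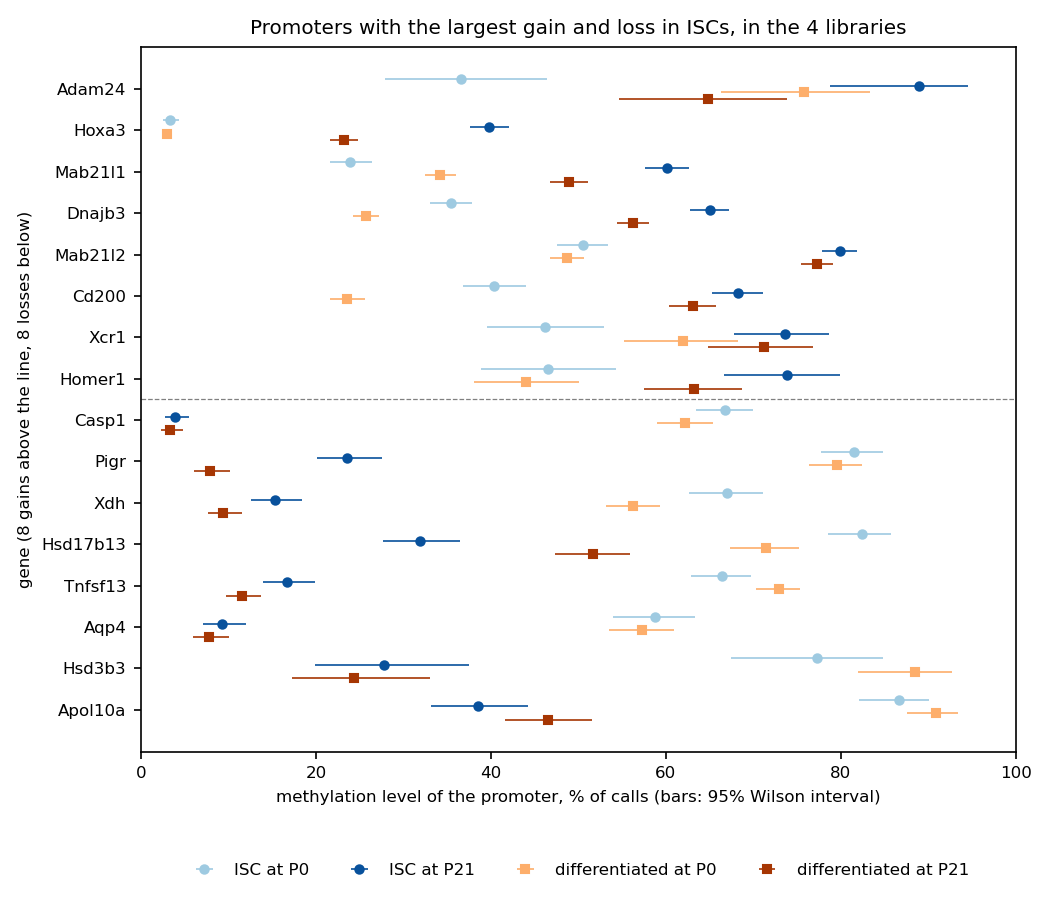
Promoter methylation level (x axis, % of calls) of the 8 largest gains and 8 largest losses in ISCs (y axis), in the 4 libraries, with 95% Wilson intervals. For Casp1 and Aqp4 both populations sit at nearly the same levels at each age, while Adam24 and Hsd17b13 differ between the populations.

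At last exons, 270 of 17049 gained (1.58%) and 297 lost (1.74%), and on divided calls 68 and 97. The gains were led by Cdkn2c, which encodes an inhibitor of cyclin D kinases (34.5% to 82.9% in ISCs, 24.6% and 81.8% in differentiated cells). Nr1d1, the clock repressor REV-ERB alpha, rose from 30.8% to 75.6%, and Mycn, a MYC family transcription factor gene, from 38.3% to 78.3%. The last exon of Nr1d1 (chr11:98629246-98629733) overlaps that of Thra, the thyroid hormone receptor alpha gene on the opposite strand, which rose from 31.7% to 58.7%, so that both share CpGs. The Thra call was lost on divided calls. Tmem191c (17.5% to 65.1%) and Snx15, a sorting nexin gene (49.4% to 89.8%), completed the 5 largest gains.

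Losses at last exons were led by Ada, the adenosine deaminase of purine salvage, which fell from 86.7% to 26.1% in ISCs and was at 82.8% and 34.8% in differentiated cells. As a mean over bins the Ada change was -33.3 points. Sel1l3 fell from 79.8% to 22.0%, and Uqcrh, a subunit of respiratory complex III, from 80.3% to 29.4%, the latter a call lost on divided calls (two-sided Fisher exact test, adjusted p = 0.15). Socs2, which restrains growth hormone signalling, fell from 68.3% to 25.2%. Mum1 fell from 64.3% to 21.3% in ISCs and was at 52.7% and 39.8% in differentiated cells.

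At gene bodies, 76 of 18438 gained (0.412%) and 129 lost (0.7%), and on divided calls 47 and 100. Rgmb, a BMP co-receptor gene that also marks ISCs, fell from 67.3% (65.8 to 68.7%, 3907 calls) to 28.0% (26.6 to 29.4%, 3955 calls) over 215 CpGs (two-sided Fisher exact test, adjusted p = 9.0e-270). Differentiated cells held almost the same levels, 67.5% and 28.4%. Mettl7b, a methyltransferase family gene, fell from 75.4% to 32.1%, P2ry1, an ATP and ADP receptor gene, from 61.0% to 23.4%, and Aldh1b1, a mitochondrial aldehyde dehydrogenase gene, from 42.9% to 9.13%. The gains were led by Cbx8, a Polycomb subunit gene (48.0% to 88.9%), Mab21l1 (17.8% to 58.1%), Zcchc3 (6.61% to 44.5%) and Mab21l2 (34.8% to 72.4%). Mab21l2 has a single exon, so that its body here includes the end of the transcript.

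Some genes were called in more than 1 part. Of 1071 genes with a called part, 27 were called in last exon and body, 24 of them in the same direction, 21 were called in promoter and body, 19 of them in the same direction, and 15 in promoter and last exon, 11 in the same direction. Over all genes, 0.613% of promoters gained and 1.1% lost, as did 1.58% and 1.74% of last exons and 0.412% and 0.7% of bodies. Hoxb5 alone was called in all 3, each time as a loss.

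The same regions were then read in differentiated cells. Of the gaining bins measured in all 4 libraries, differentiated cells moved at least 5 points in the same direction in 27175, by less than 5 points in 11136 and at least 5 points the other way in 4355, with a median change of 9.22 points against 27.3 points in ISCs. For losing bins these numbers were 47101, 8776 and 3237, with a median of -18.8 points against -31.8 points. Over all 4075995 bins, differentiated cells were at least 5 points higher at P21 in 924260, within 5 points in 2097733 and at least 5 points lower in 1054002. Of the promoters called in ISCs, 48 of 128 gains (37.5%, exact binomial interval 29.1 to 46.5%) and 105 of 232 losses (45.3%, 38.7 to 51.9%) were called in the same direction in differentiated cells, where 0.549% of all promoters gained and 1.09% lost. Of last exons 100 of 270 gains (37%) and 129 of 297 losses (43.4%) were called in the same direction there, beside 1.17% and 1.68% of all last exons, and of bodies 33 of 76 (43.4%) and 59 of 128 (46.1%), beside 0.348% and 0.713%. No promoter or body was called in the opposite direction, while 1 last exon gain and 1 last exon loss were. At promoters the differentiated change had the sign of the ISC change at 111 of the 128 gains and 207 of the 232 losses, with medians of 11.8 and -13.8 points. The ISC medians were 18.8 and -20.3 points, on the libraries that chose these regions. The exact binomial intervals treat promoters as independent and cover no spread between libraries.

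**Figure D3:**
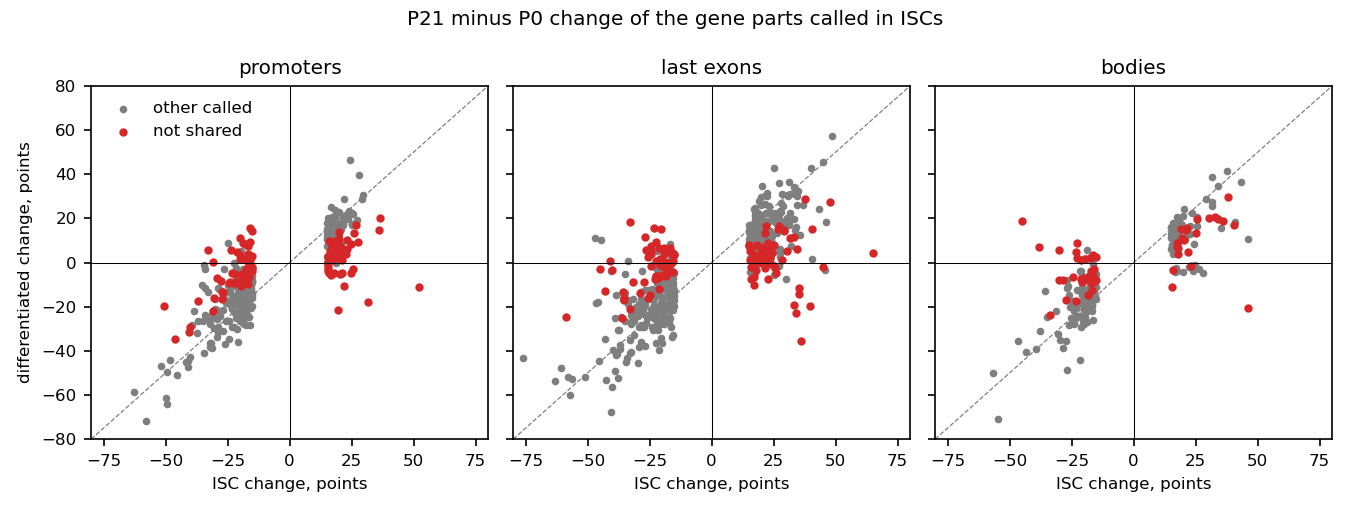
Change from P0 to P21 in ISCs (x axis, points) and in differentiated cells (y axis, points) for each promoter, last exon and body called in ISCs; red points are changes not shared by differentiated cells, and the dashed line marks equal change. Most points lie on the same side of 0 on both axes, and points within 15 points of 0 on the x axis are absent because of the calling rule.

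A change was counted as not shared when an ISC call also differed from the change in differentiated cells (z test of the difference of the 2 changes, adjusted p below 0.05, at least 10 calls in all 4 libraries). The ISC change also had to be the larger in its direction, so that calls where differentiated cells moved further the same way were not counted. At promoters 47 gains (0.224% of those tested) and 57 losses (0.272%) met this, at last exons 60 (0.358%) and 54 (0.322%), and at bodies 22 (0.12%) and 31 (0.169%). Among bins there were 4374 gains (0.107%) and 3187 losses (0.0782%). Of the 47 promoter gains, differentiated cells moved at least 5 points the other way at 6, by under 5 points at 21, and in the same direction but less at 20. For the 57 promoter losses these numbers were 9, 19 and 29.

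The rule that chose the not-shared bins compares the 2 changes, and so it also sets how far the populations lie apart at each age. As a description, differentiated cells were a median of 19.9 points above ISCs at P0 and 15.6 points below them at P21 in gaining bins, and 18.2 points below and 17.3 points above in losing bins.

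Each call was also read on the other DNA strand, that is, on other reads of the same libraries, in the 1199608 bins with enough calls on both strands. Bins that gained on the top strand alone (median 31.6 points) had a median of 11.6 points on the bottom strand, and bins that lost (-36.9 points) had -20.5 points. The bottom strand had the same direction in 77.2% of the gains and 84.6% of the losses, against 48.1% and 46.4% of all bins. Not-shared bins held up less. Their difference between the populations was 41.8 points for gains and -42.3 points for losses on the top strand but 4.26 and -2.45 points on the bottom strand, with the same direction in 60.2% and 57.2%, against 50.1% and 48.5% of all bins.

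At gene parts the differences also shrank, to a varying extent. Promoter gains that were not shared on the top strand had a median difference of -0.05 points on the bottom strand, and losses had -0.78 points. Promoter gains chosen on the bottom strand had 3.13 points on the top strand, with the same direction in 61.5% against 47.5% of all promoters. Last exon gains kept more, with 5.89 and 3.87 points and the same direction in 74.3% and 67.8%, against 51.1% and 51.3% of all last exons. Last exon losses had -3.87 and -0.62 points, with the same direction in 64% and 57.1%, against 48.8% and 48.6%. When the calls were divided by the number of CpGs, no not-shared bin or last exon was left, and 3 promoters and 4 bodies were.

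**Figure D4:**
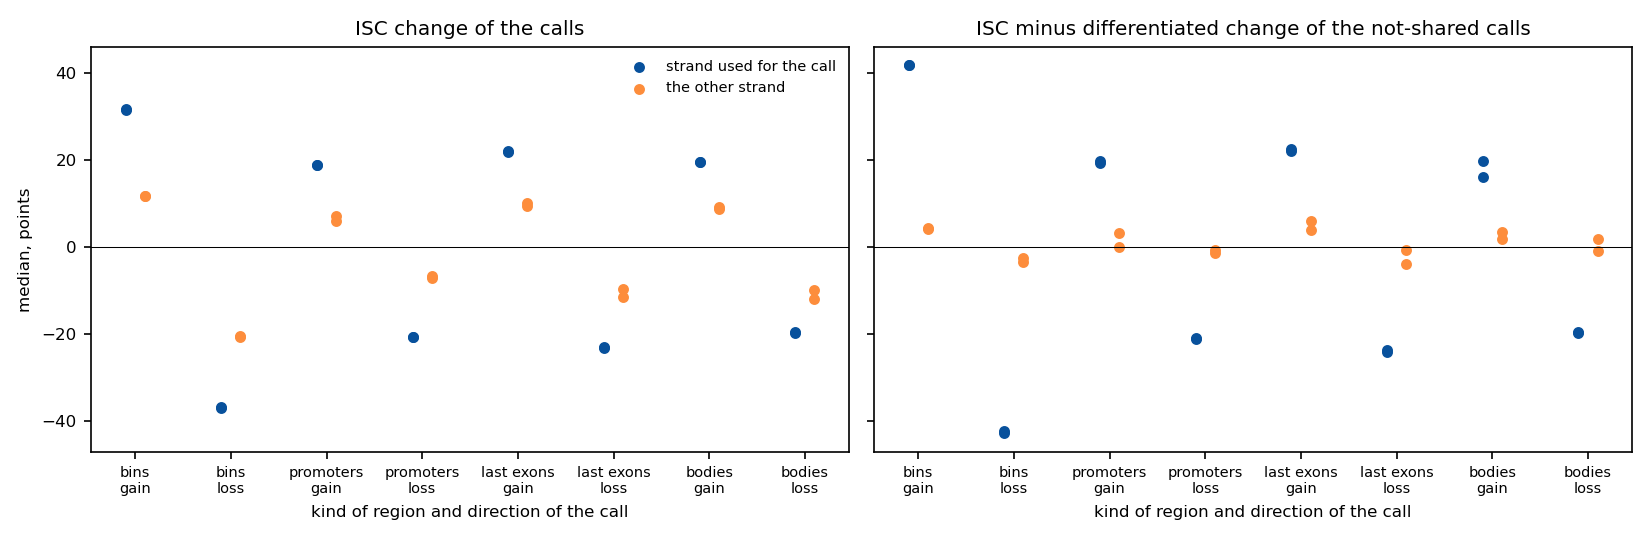
Median change (y axis, points) of regions chosen on 1 strand, on that strand (blue) and on the other (orange), with 1 point for each choosing strand, for ISC calls (left) and for not-shared calls (right, ISC minus differentiated change). On the other strand the not-shared bins sit between -3.46 and 4.26 points, while called bins sit between -20.7 and 11.7 points.

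The 7 gene parts that stayed not shared on divided calls were the promoters of Adam24, Fam55b and Hsd17b13 and the bodies of Hoxd3, Hoxd10, Kif12 and Oxsm. The start of Hoxd4 lies within the Hoxd3 body, so that the Hoxd3 body shares CpGs with Hoxd4. Fam55b rose from 36.3% to 61.7% in ISCs and was at 44.2% and 41.2% in differentiated cells. The body of Kif12, a kinesin gene, fell from 64.9% to 47.1% in ISCs and was at 52.7% and 54.6% in differentiated cells. Oxsm, which encodes an enzyme of mitochondrial fatty acid synthesis, fell from 50.9% to 34.6% beside 35.5% and 38.8%, with a mean over bins of -7.46 points. For Hsd17b13 the losses were -47 points on the top and -56 points on the bottom strand.

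By the size of the difference of the changes, the other leading gains were the last exons of Polr2f, an RNA polymerase subunit gene (38.5% to 73.6% in ISCs, 65.6% and 51.4% in differentiated cells), Nr2f2, the nuclear receptor COUP-TFII (18.9% to 45.0%, beside 30.4% and 25.9%), and Stip1, a co-chaperone gene (59.4% to 82.1%, beside 81.7% and 74.1%). Vmn2r15, a pheromone receptor gene, and Slco1a5, an organic anion transporter gene, gained at promoters (49.5% to 69.1% and 47.6% to 69.6%). The mean over the bins of the Slco1a5 promoter moved by only 0.70 points.

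Losses by the same order were at the last exons of Defb42, a defensin gene (61.7% to 20.8%, beside 48.1% and 49.0%), Cyb5r4, a cytochrome b5 reductase gene (83.3% to 60%, beside 64.9% and 80.4%), and Cpsf4l (81.7% to 41.4%, beside 66.95% and 63.7%). Cdh8, a cadherin gene, fell from 59.9% to 39.6% beside 25.6% and 41.0%, and Actl6b, a chromatin remodelling subunit gene of neurons, from 63.3% to 36.8% beside 55.7% and 61.5%. The promoter of Clec2g, a C-type lectin gene, fell from 68.1% to 35.4% beside 54.2% and 59.7%. For Defb42 the strands fell by 41.9 and 39.9 points and for Cpsf4l by 34.9 and 51.3 points, whereas the mean over bins of Cdh8 was only -6.09 points. On divided calls the ISC calls of Polr2f, Vmn2r15, Slco1a5, Stip1, Cyb5r4, Cdh8 and Actl6b were lost.

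Adjacent not-shared bins formed few runs: 97 of 4255 gaining runs and 45 of 3137 losing runs had 2 or more bins, and the longest had 6. That run lay in intron 1 of Hoxd3 (chr2:74573601-74574800, 55 CpGs) and rose from 20.9% to 70.7% in ISCs, beside 33.0% and 51.7% in differentiated cells. Another, of 5 bins and 14314 bp from the start of Trim71, which encodes a stem cell RNA-binding protein, rose from 11.6% to 46.7% beside 24.3% and 31.4%. A run of 4 bins over exon 4 and intron 3 of the clock gene Per3 rose from 31.6% to 72.6% beside 42.1% and 53.0%. On the top and bottom strands the difference between the populations was 36.7 and 23.0 points at Hoxd3, 35.0 and 27.7 points near Trim71, and 24 and 30.8 points at Per3.

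Among losing runs the longest had 3 bins, and of several such runs the 3 with the largest mean difference are given. One in intron 1 of Bcl11b, a T cell and neuronal transcription factor gene, fell from 62.0% to 31.1% beside 33.6% and 29.8%. One lay 109 bp from the start of Hoxb5 and fell from 62.6% to 21.8% beside 49.0% and 40.3%, and one over exon 1 and intron 1 of Hoxd10 fell from 46.5% to 14.4% beside 26.8% and 22.8%. On the top and bottom strands these runs differed by -2.1 and -37.5 points at Hoxb5, -41.8 and -9.74 points at Hoxd10, and -37.1 and -23.4 points at Bcl11b.

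The bin with the largest ISC change of 5 of these runs is given below on the plus strand of mm9, with its CpGs in capitals, to show the CpGs that differed between the populations: chr2:74573601-74573800, chr9:114488601-114488800, chr4:150416001-150416200, chr12:109238201-109238400 and chr2:74530801-74531000. They hold 9, 5, 4, 4 and 13 CpGs.
Hoxd3 intron 1, gain: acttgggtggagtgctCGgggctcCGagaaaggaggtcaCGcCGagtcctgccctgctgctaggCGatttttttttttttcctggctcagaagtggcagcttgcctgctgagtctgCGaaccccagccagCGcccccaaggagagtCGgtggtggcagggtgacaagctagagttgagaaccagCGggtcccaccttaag
near Trim71, gain: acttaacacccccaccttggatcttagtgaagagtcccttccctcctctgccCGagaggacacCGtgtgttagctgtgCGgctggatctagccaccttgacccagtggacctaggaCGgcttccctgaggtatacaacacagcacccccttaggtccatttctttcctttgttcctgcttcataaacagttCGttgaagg
Per3 intron 3, gain: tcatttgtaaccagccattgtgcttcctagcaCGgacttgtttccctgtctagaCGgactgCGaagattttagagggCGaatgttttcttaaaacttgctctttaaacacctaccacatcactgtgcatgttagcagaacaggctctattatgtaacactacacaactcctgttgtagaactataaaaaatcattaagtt
Bcl11b intron 1, loss: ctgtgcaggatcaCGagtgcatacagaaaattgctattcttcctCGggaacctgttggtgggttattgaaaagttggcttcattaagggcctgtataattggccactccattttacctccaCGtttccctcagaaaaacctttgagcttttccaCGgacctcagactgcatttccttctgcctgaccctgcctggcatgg
Hoxd10 intron 1, loss: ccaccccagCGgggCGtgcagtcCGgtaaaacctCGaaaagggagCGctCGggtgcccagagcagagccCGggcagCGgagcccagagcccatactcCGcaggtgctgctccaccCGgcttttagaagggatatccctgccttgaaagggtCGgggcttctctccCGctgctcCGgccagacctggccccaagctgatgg

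Hox genes, which set position along the body axis and keep regional expression in the gut, recurred in the lists of not-shared change. Of 39 Hox last exons measured, 7 gained and 6 lost, and 10 of these 13 were not shared. Over all last exons 1.58% gained and 1.74% lost, and 0.358% and 0.322% were not shared. On divided calls Hoxd8, Hoxb9 and Hoxd10 lost their last exon call in ISCs, and no last exon stayed not shared. The clusters moved differently. In Hoxa, 4 of 11 last exons gained and none lost (Hoxa5, Hoxa6, Hoxa7 and Hoxa9), with changes between 15.7 and 19.7 points. In Hoxb, 5 of 10 lost and none gained (Hoxb4, Hoxb5, Hoxb6, Hoxb7 and Hoxb9), led by Hoxb7 (64.2% to 29.0% in ISCs, 57.2% and 39.96% in differentiated cells).

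No Hoxc last exon was called. In Hoxd, Hoxd3 (32.9% to 66.0%), Hoxd4 (49.4% to 80.8%) and Hoxd8 (31.8% to 49.6%) gained, and Hoxd10 lost (44.2% to 23.3%, beside 41.7% and 43.5% in differentiated cells). Hoxa9 rose from 5.05% to 24.3% in ISCs while differentiated cells were at 14.7% and 15.1%. At promoters, Hoxb5 fell from 48.5% to 20.8% and Hoxb3 from 85.0% to 58.2%, while Hoxb2 rose from 31.2% to 47.7%, a call lost on divided calls. Neighbouring genes of a cluster are not independent of each other.

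**Figure D5:**
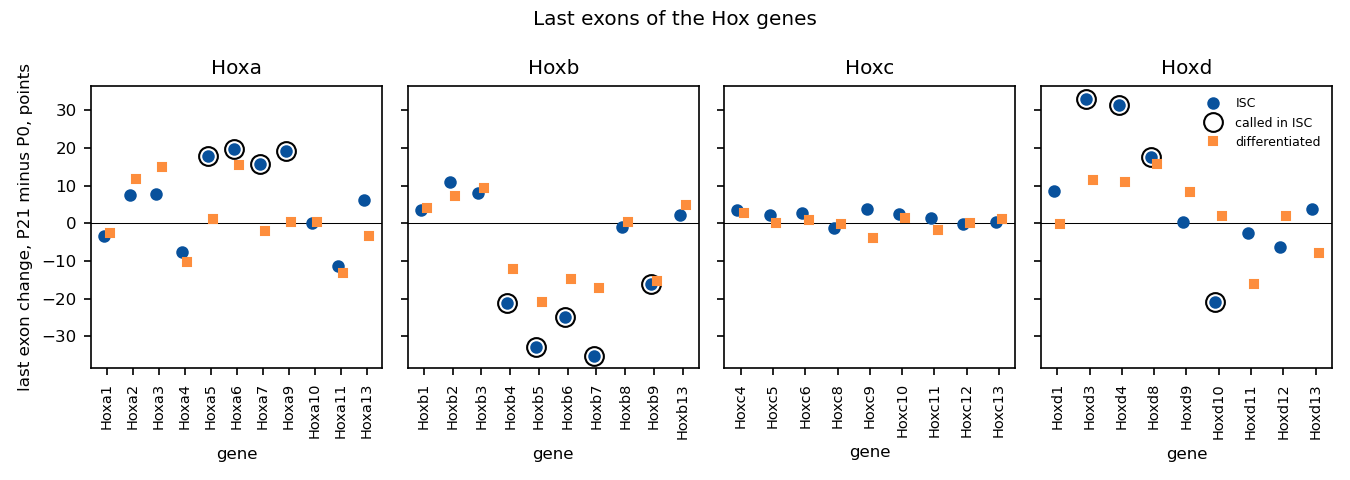
Change of last exon methylation from P0 to P21 (y axis, points) for each measured Hox gene (x axis) of the 4 clusters, in ISCs (circles, ringed where called) and differentiated cells (squares). Called Hoxa last exons lie above 0 and called Hoxb last exons below 0.

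Families were taken as genes that share the leading letters of their symbol, with 10 or more members, and ranked by median change. Over 218 families the last exons of Hoxa had the highest median (7.45 points) and those of Hoxb the lowest (-8.54 points), beside 0.29 points over all last exons. Hoxa also ranked first among 227 families by body (3.13 points). The lowest body median was that of Rpl, ribosomal protein genes, at -4.60 points over 42 genes, 10 of them above 0, with 4 called losses, beside 0.7% of all bodies losing (Rpl37, Rpl29, Rpl7a and Rpl6, of which Rpl29 was lost on divided calls). These genes have many processed copies elsewhere in the genome, which reads may not tell apart. The Rpl median in differentiated cells was -4.38 points. Ugt, conjugating enzymes, followed at -3.94 points with no body called.

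By promoter, where 0.613% of all genes gained and 1.1% lost, the lowest of 243 families were Ces, carboxylesterases of lipid and drug breakdown, at -5.13 points with 3 losses and 1 gain of 19, and Tnfsf, ligands of the TNF family, at -5.03 points with 2 losses of 11. The called Ces losses were Ces2g (64.4% to 46.2%), Ces1g (46.2% to 30.4%) and Ces2b (40.8% to 25%), and the gain was Ces1f (74.0% to 95.1%). On divided calls the 3 losses were not called and the gain was. Gbp, interferon-induced GTPases, had a median of -4.76 points and 1 loss of 11, and Rdh, retinol dehydrogenases, -2.70 points and 3 losses of 12 (Rdh1, Rdh9 and Rdh16). The highest was Spink, protease inhibitors, at 3.95 points with no promoter called of 12, which was 1.67 points over members with at least 100 calls. The median over all promoters was -0.08 points.

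The gene lists are read against all genes, of which 0.613% of promoters gained and 1.1% lost, 1.58% and 1.74% of last exons, and 0.412% and 0.7% of bodies. Lists overlap, so that the same call can be counted in several. The promoter losses of Aqp4, Pigr, Hnf4a, Hnf4g and Nr3c1 each recur across lists. Detoxification and aldehyde metabolism had 5 promoter losses and no gain of 44, 3 last exon losses of 42 and 4 body losses of 44, and the calls of 4 of these were lost on divided calls (Aldh3a1 and Gsta1 promoters, Nqo1 last exon and Gstp1 body). Mgst1, a microsomal glutathione transferase gene, fell at its promoter from 41.4% to 9.90%, Aldh1a1, a retinoic acid synthesis gene, from 36.7% to 15.3%, and Nqo1, a quinone reductase gene, from 29.4% to 10.2%. The last exon of Gpx2, the epithelial glutathione peroxidase gene, fell from 76.6% to 34.1% and its body from 23.6% to 2.16%. All these were also lower at P21 in differentiated cells, where the Gpx2 last exon was at 78.3% and 25.3%.

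Colonocyte absorption and transport had 4 promoter losses and no gain of 32, beside 1.1% of all promoters losing. Fabp2, a fatty acid binding protein gene, fell from 34.8% to 4.78%, and Ceacam20, a brush border adhesion gene, from 70.5% to 51.0%. Its last exons had 2 gains and no loss of 30, at the keratin gene Krt20 (28.6% to 57.3%) and the protocadherin gene Cdhr5 (52.5% to 76.1%, a call lost on divided calls). Innate defence and microbial sensing had 2 losses of 36, Pigr and the inflammasome sensor gene Nlrp6 (18.9% to 0.716%). The body of Nlrp6 also lost (33.3% to 9.89%), whereas Duoxa2, a maturation factor of the hydrogen peroxide producing oxidase, gained at its last exon (24.5% to 57.7%) and body (8.22% to 28.4%). The body changes of Nlrp6 and Duoxa2 were both counted as not shared, but not on divided calls. Among intestinal identity factors 2 of 28 promoters lost, Hnf4a (35.1% to 13.4%, and 32.3% to 13.4% in differentiated cells) and Hnf4g (74.6% to 43.7%), the latter not shared (70.0% and 70.3%) but with only -6.88 points on the bottom strand. At last exons Foxa2 gained (8.88% to 36.2%, beside 10.1% and 26.6% in differentiated cells) and Cdx2 lost (30.4% to 9.90%, beside 21.3% and 15.01%), both counted as not shared but not on divided calls.

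Stem cell markers had 1 promoter loss of 26 (Aqp4), 1 gain and 2 losses of 26 last exons, and 3 losses of 26 bodies (Rgmb, Lrig1 and Axin2). Over all genes 1.1% of promoters, 1.74% of last exons and 0.7% of bodies lost. On divided calls the last exon losses of Ascl2 and Rnf43 were not called. Lrig1, a negative regulator of ErbB receptors, fell from 65.7% to 43.6% over 1174 CpGs, and Axin2, a Wnt feedback gene, from 71.2% to 52.7% over 648 CpGs. Differentiated cells also fell, from 69.5% to 45.4% at Lrig1 and from 69.6% to 55.0% at Axin2. The Axin2 loss was counted as not shared, but not on divided calls. Sp5, a Wnt target, rose at its last exon from 3.26% to 18.5%, beside 1.63% and 9.18% in differentiated cells. The last exon of Rnf43, which removes Wnt receptors, fell from 84.8% to 65.8% and was at 84.0% and 84.4% in differentiated cells. Both were counted as not shared, but not on divided calls. Nuclear receptors had 4 promoter losses of 46, among them the retinal receptor gene Nr2e3 (76.3% to 47.1%, with -1.05 points on the top and -35.6 points on the bottom strand), and 3 last exon gains (Nr1d1, Thra and Nr2f2) and 1 loss (Nr2f1, 47.5% to 29.6%). Of these, Nr1d1 and Thra share CpGs, and the calls of Thra and Nr2f1 were lost on divided calls.

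At promoters, Notch pathway genes had 1 gain and 1 loss of 26 (Notch4, 35.3% to 51.7%, and the Notch inhibitor Numb, 69.4% to 37.3%), Wnt ligands, receptors and antagonists 1 gain of 47 (Wnt8a), secretory lineage genes 1 gain and 1 loss of 34 (Clca3 and Muc2), suckling to weaning genes 2 losses of 30 (Pigr and the glucocorticoid receptor gene Nr3c1, 45.0% to 25.9%), and glycosylation enzymes 1 gain and 2 losses of 85. No promoter was called among 36 BMP and hedgehog genes, 28 fetal and regenerative genes, 16 MHC class II genes, 20 DNA methylation writers and erasers, 32 imprinted genes or 32 germline genes. On divided calls Notch4, Clca3, Muc2, Nr3c1 and the glycosylation genes St6galnac1 and St3gal1 were not called. At last exons, glycosylation enzymes had 3 gains and no loss of 79 (AI464131, Gal3st1 and B4galnt4), and DNA methylation writers and erasers 2 gains and 2 losses of 20 (Dnmt1 and Gadd45b, and Gadd45a and Hells), beside 1.58% and 1.74% of all last exons. On divided calls B4galnt4, Dnmt1 and Gadd45b were not called, and the last exon of Dnmt1 had 2 CpGs. The body of Shh, a hedgehog ligand gene, rose from 10.3% to 33.8%, and that of Amn, a cofactor of neonatal protein uptake, from 23.2% to 53.4%. The Amn last exon gained too, and both Amn gains were counted as not shared, but not on divided calls.

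Adjacent called bins also formed runs, 3867 of 38272 gaining and 6819 of 51873 losing runs having 2 or more bins. Among the gaining runs of rank 4 to 8 by length, a run of 12 bins in exon 7 of Zfp316 rose from 30.8% to 59.7% and a run of 11 bins in Mab21l2 from 42.5% to 77.5%, the latter beside 37.8% and 73.3% in differentiated cells. Among the losing runs of 8 bins, one in intron 1 of Vdr, the vitamin D receptor gene (chr15:97729001-97730600), fell from 75.5% to 19.6% beside 75.8% and 19.7%, and one in intron 1 of Etv6 from 45.7% to 17.97% beside 52.3% and 20.5%.

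Short sequence motifs were counted on either strand in bins of 40 to 50% GC outside CGIs. The HNF4 letters CAAAGTCC were in 2.10% of losing bins, 0.778% of gaining bins and 0.816% of all bins tested. The GATA letters AGATAAG were in 4.47% of losing, 2.92% of gaining and 2.77% of all bins, and the NFI letters TTGGCA in 15.2%, 9.05% and 10.03%. In gaining bins the CDX letters TTTATGG (4.44%, against 2.76% of all bins) and the FOX letters TGTTTAC (4.41%, against 2.89%) had the largest ratios to all bins of the 11 motifs searched. The CDX letters were in 4.30% of losing bins too. AP-1 (TGANTCA), TCF/LEF (ATCAAAG), KLF (GGGTGTG), ETS (CAGGAAG), SOX (ACAATGG) and ARE (TGACNNNGC) lay between 0.876 and 1.36 times the share of all bins in losing bins. Depth and CpG number were not matched between these sets of bins. A match describes the letters of a bin and shows no binding.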

How the data were processed

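Genomic DNA of 4 groups with 1 pooled library each was treated with bisulfite and sequenced by the study, and the authors trimmed reads and mapped them to mm9 with Bismark. The sources used here name no version and do not mention duplicate removal. The deposited values are, for each CpG cytosine, the count of calls, the count of methylated calls, and their fraction, which was not used. Groups were taken from the labels.

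Strands were summed, 2319 of 20364700 autosomal CpGs with over 1000 calls in a library were left out, and bins of 200 bp with at least 2 CpGs were formed. Genes were GENCODE M1 protein-coding genes with the transcript of longest coding sequence. CGIs were unions of 500-bp windows with at least 25 CpGs. Levels were compared by two-sided Fisher exact tests and changes by z tests with Benjamini-Hochberg adjustment, in Python 3.11.15 with numpy 2.4.6, pandas 2.3.3, scipy 1.17.1 and numba 0.67.0, and the code was tested on simulated data. Figures used matplotlib 3.10.9. Repeats were not examined, since the reference used here marks none.

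The named parts are the largest changes among called parts with at least 50 calls and 5 CpGs (8 and 8 promoters, 5 and 5 last exons, 4 and 4 bodies, and 6 and 6 not shared), clone names left out. Up to 3 called members are named per list and part, 3 and 3 not-shared runs, runs of rank 4 to 8 in length, and families of extreme median. Further names were chosen after seeing values: the 7 parts kept on divided calls, further Hox genes, Rpl6, and Ces, Rdh and Tnfsf as examples among families. The members, lists and tests were chosen with earlier results of these data known. Alternatives were other minimums, limits, strands, thinning, divided calls, bin shifts, transcripts and promoter widths. Some runs and sequences that this rule selects are not reported here.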

Additional observations from a re-analysis of the deposited data

Results flagged for a closer look

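The following regions are listed because the change from P0 to P21 differed between ISCs and differentiated cells by a test of the difference itself. Only regions where the ISC change was the larger in its direction are listed. The promoters of Pigr (13.7 points), Tnfsf13 (11.6 points) and Cd200 (-11.6 points) also passed the test but were left out, since differentiated cells moved further there. Values are the ISC change minus the differentiated change, in points. Among promoters they were 63.2 for Adam24, 41.0 for Vmn2r15, 32.7 for Slco1a5, 28.4 for Fam55b, 21.5 for Mab21l1, 18.2 for Xcr1, 16.3 for Hoxa3, -30.7 for Hsd17b13 and -38.2 for Clec2g.

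Among last exons they were 49.4 for Polr2f, 30.6 for Nr2f2, 30.3 for Stip1, 25.03 for Snx15, 20.4 for Tmem191c, -41.8 for Defb42, -38.9 for Cyb5r4, -37.0 for Cpsf4l, -35.7 for Cdh8, -32.4 for Actl6b and -30.1 for Mum1. Among bodies they were 23.3 for Mab21l1, 8.40 for Zcchc3, 8.20 for Hoxd3, -9.97 for Aldh1b1, -19.6 for Oxsm, -19.7 for Kif12 and -20.5 for Hoxd10.

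For runs of adjacent bins, tested bin by bin and not as a whole, the differences were 31.2 (Hoxd3 intron), 27.9 (near Trim71) and 30.2 (Per3) for gains, and -27.1 (Bcl11b intron), -32.0 (near Hoxb5) and -28.1 (Hoxd10) for losses.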

How the results depend on the processing

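No paired analysis was possible because each group had 1 library, and no replicate could be left out. Dividing calls by CpGs lowered ISC bins to 255 gains and 2939 losses and not-shared bins to 0 and 0, promoters to 61 and 123 (not shared 2 and 1), last exons to 68 and 97 (0 and 0), and bodies to 47 gains (not shared 1 gain and 3 losses). Body losses stayed within 1.5 times the main count. A limit of 30 points left 17407 and 33799 bins, 4 and 44 promoters, 42 and 70 last exons, and 16 and 14 bodies. With no test, 295849 bins gained and 335339 lost by over 15 points. One strand alone gave 19246 and 27372 bins (top) or 19508 and 27806 (bottom), and 235 or 216 promoter gains. Promoters of 500 bp gave 196 gains. Thinning to the lowest library left 1480 and 1011 not-shared bins. Requiring a difference of changes over 15 points left 29 and 28 promoters, and 7 and 15 bodies. Counting every call once gave a mean ISC change of -0.682 points. The causes were not tested.

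Reading bins on the other strand was added after seeing the data. Called bins then had medians of 11.6 and -20.5 points (chosen on top) and 11.7 and -20.7 points (chosen on bottom), and not-shared bins 4.26 and -2.45, and 4.13 and -3.46 points. The median reversed to -0.054 points for not-shared promoter gains and to 1.70 points for not-shared body losses, both chosen on the top strand.

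Other minimums of calls, shifted bins, deep CpGs kept, the longest transcript, and means of bin levels kept every count within 1.5 times. Limiting families to members with at least 100 calls kept the number of families above 0 within 1.5 times but moved 12 of the highest and lowest family medians and kept 35, the former including Spink promoters (1.67 points). Of the named gene parts none reversed on either strand or as a mean of bin levels, but 6 lost their call on the top strand alone, 13 on the bottom strand alone, 9 on divided calls and 5 as a mean of bin levels.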
